A study of Mus musculus with 2 samples.

Results

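The Notch receptors Notch1, Notch2, Notch3 and Notch4, the ligands Jag1, Jag2, Dll1 and Dll4, and the target genes Hes1 and Hey1 were described in nestin-GFP+ stromal cells of mouse bone marrow. They were taken by symbol from the table of expression values, and each of the 10 has 1 row of its own among 35798 rows. The study compared 2 RNA-seq libraries from adult mice on a C57BL/6 background. One library, the control, was made from Nes-gfp littermates. The other, called the mutant library here and JAK2 V617F in the plots, was made from Nes-gfp;Mx1-cre;JAK2-V617F mice, which carry an activating form of the kinase gene Jak2 behind an interferon-inducible Cre. Mice of both groups had received pIpC, the inducer of this Cre, 6 weeks before the cells were sorted as GFP+ and negative for CD45, CD31 and Ter119. Neither Cre nor the JAK2 allele is listed for the control, so their effects cannot be told apart, and Mx1-cre is not specific to blood cells. Each library pooled cells from 3 animals and each genotype had 1 library (n = 1). All differences below are therefore between 2 pools, without replicate error and without a test. Values are FPKM, fragments scaled to transcript length and to the size of the library. How library size was set is not given in the sources used here.

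Notch signalling passes between touching cells. A Jagged or Delta-like ligand on one cell binds a Notch receptor on its neighbour, an ADAM protease and then gamma-secretase cut the receptor, and the freed intracellular domain joins the DNA-binding protein RBPJ to switch on genes such as Hes1 and Hey1, which encode transcriptional repressors. In bone marrow, Jag1 is known as a stromal and osteoblastic ligand, Dll4 and Notch4 as genes of blood vessel endothelium, and Notch3 as a receptor of pericytes and smooth muscle.

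The results turn on the ligands, so the DNA before the starts of Jag1, Dll1 and Dll4 is shown (RefSeq, build GRCm38.p6). RefSeq windows were found for 8 of the 10 genes; Hes1 and Hey1 had none. The 250 bases before each start were searched on both strands for TGGGAA, the core of the RBPJ site, for CACGCG, a site bound by repressors of the HES and HEY family, and for CACGTG, the palindromic E-box. These motifs were taken one by one, and no matches overlapped in the windows of these genes. Capitals mark CACGCG or its reverse complement. Jag1 is printed only as far as the earlier GENCODE start, and of the 2 Dll1 starts the one with a match is printed.
Jag1, chr2:137116645-137116770, minus strand: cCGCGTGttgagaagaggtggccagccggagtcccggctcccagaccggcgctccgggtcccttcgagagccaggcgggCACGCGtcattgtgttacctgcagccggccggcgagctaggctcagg
Dll1, chr17:15376933-15377182, minus strand: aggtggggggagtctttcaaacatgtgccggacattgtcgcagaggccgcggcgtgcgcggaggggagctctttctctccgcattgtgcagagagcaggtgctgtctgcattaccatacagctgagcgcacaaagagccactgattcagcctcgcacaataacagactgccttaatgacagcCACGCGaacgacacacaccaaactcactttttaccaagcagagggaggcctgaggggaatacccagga
Dll4, chr2:119325534-119325783, plus strand: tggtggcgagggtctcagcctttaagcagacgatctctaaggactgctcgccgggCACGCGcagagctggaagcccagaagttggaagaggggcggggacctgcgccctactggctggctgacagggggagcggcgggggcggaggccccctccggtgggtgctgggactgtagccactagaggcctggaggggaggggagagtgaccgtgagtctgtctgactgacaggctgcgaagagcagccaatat

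CACGCG occurred in 4 of the 9 windows of these genes, those of Jag1, Notch2, 1 of the Dll1 starts and Dll4. Counted from the RefSeq start, the matches began at -249 and -171 in Jag1, -68 in Dll1, -195 in Dll4 and -42 in Notch2. The RefSeq start of Jag1 lies inside the GENCODE transcript, past the end of the printed stretch. Among all 32851 windows of the same length, 7.6% held it, and among the 12193 windows with 55 to 75% G and C, 14.5% did. TGGGAA and CACGTG were found in 0 of the 9 windows, against 21.6% and 6.0% of all windows. Among windows with 55 to 75% G and C, 20.1% and 8.8% held them. With only 9 windows, no lack of these motifs can be read from this. A match is a string of letters and not a measured binding site.

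The receptors were present at similar levels in both libraries, while Jag1, Dll1, Dll4 and Hes1 were higher in the mutant library, with plain ratios of FPKM between 1.92 and 2.68. Of the 10 genes, 8 had a higher value in the mutant library and 2, Notch1 and Notch2, a lower one, where 47.5% of protein-coding genes at 1 FPKM or more had a ratio above 0. Differences are given as log2((JAK2 V617F FPKM + 1)/(control FPKM + 1)), which understates the change of low genes. Of the 9 genes at 1 FPKM or more in a library, 0 were at least 2-fold higher and 0 at least 2-fold lower on this scale. Among the 12439 protein-coding genes that passed the same filter, 10% were at least 2-fold higher and 8.67% at least 2-fold lower. The median log2 ratio was 0.35 over the 9 genes and -0.04 over all 12439. The 9 were chosen with earlier results of these libraries known, and Jag2 was left out by the filter, while Dll1 passed it only through the mutant library. Over all 10 genes the median was 0.32. The plain ratio of Dll1 is above 2, and it counts as within 2-fold because of the pseudocount.

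**Figure D1:**
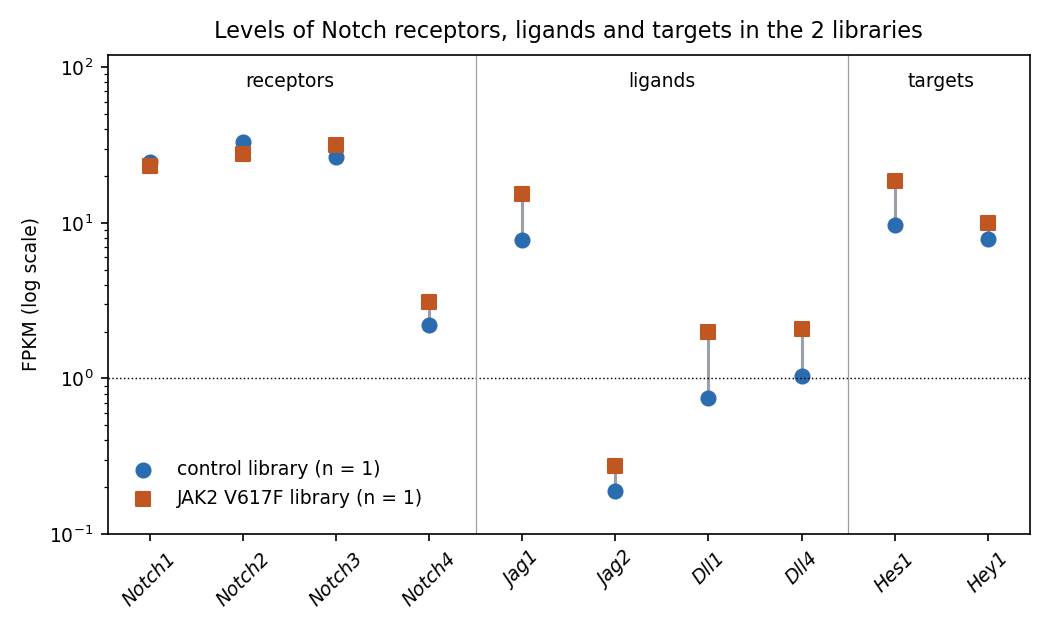
FPKM on a log axis of each receptor, ligand and target gene in the control library (circles) and the mutant library (squares), 1 library each; the dotted line is 1 FPKM. Notch1, Notch2 and Notch3 lie between 23.3 and 33.1 FPKM in both libraries, and the widest gaps are those of Jag1, Dll1, Dll4 and Hes1.

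The receptors were led by Notch1, Notch2 and Notch3, which formed a narrow band of levels. Gene positions here and below are those of GENCODE vM21 on GRCm38. Notch2 (chromosome 3, 98013527 to 98150361, plus strand) was at 33.1 FPKM in the control library and 27.5 FPKM in the mutant library, a log2 ratio of -0.26. It was the highest of the 10 genes in the control library. Notch3, the pericyte receptor (chromosome 17, 32120820 to 32166852, minus strand), was at 26.6 FPKM in the control library and 31.5 FPKM in the mutant library (0.24), and was the highest of the 10 there. Notch1 (chromosome 2, 26457903 to 26516663, minus strand) was at 24.7 and 23.3 FPKM, a log2 ratio of -0.08. It turned positive under the 3 other scalings, up to 0.15, which move all genes alike, and lay between -0.04 and -0.03 from the median of all protein-coding genes under each of the 4. Notch4, the endothelial receptor (chromosome 17, 34564268 to 34588503, plus strand), was far lower, at 2.21 and 3.1 FPKM (0.35). The 4 receptors summed to 86.5 FPKM in the control library and 85.4 FPKM in the mutant library, a ratio of 0.987. Within that sum, the share of Notch2 was 38.2% in the control library and 32.2% in the mutant library, and that of Notch3 30.7% and 36.9%. Notch1 contributed 28.5% and 27.3%, and Notch4 2.5% and 3.6%. Notch2 and Notch3 thus exchanged the leading place, with differences in opposite directions that were small in size.

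The ligands were lower than the main receptors in both libraries, and Jag1 made up most of them. Jag1 (chromosome 2, 137081456 to 137116644, minus strand) was at 7.71 FPKM in the control library and 15.3 FPKM in the mutant library, a ratio of 1.98 and a log2 ratio of 0.90. This was the largest log2 ratio of the 10 genes with the pseudocount of 1, while Dll1 was higher with one of 0.1 and Hes1 (0.68 against 0.67) with one of 5. Of all 12439 protein-coding genes, 11.8% had a log2 ratio at least as high. Among the 4514 of them with a mean level within 2-fold of that of Jag1, 8.9% did. Dll4, a Delta-like ligand of arterial endothelium (chromosome 2, 119325784 to 119335962, plus strand), was at 1.04 and 2.07 FPKM, a ratio of 1.98 and a log2 ratio of 0.59. Dll1, a Delta-like ligand (chromosome 17, 15367354 to 15376872, minus strand), was at 0.744 and 2 FPKM, with a ratio of 2.68 and a log2 ratio of 0.78. Values this low vary more between the libraries. Of the genes within 2-fold of the mean level of Dll1, 30.6% had a log2 ratio at least as high, and 35.2% did for Dll4. Jag2, the other Jagged ligand (chromosome 12, 112907819 to 112929776, minus strand), was the lowest of the 10, at 0.19 FPKM in the control library and 0.275 FPKM in the mutant library.

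All 4 ligands had the higher value in the mutant library, that of Jag2 within counting error. Their sum was 9.69 FPKM in the control library and 19.6 FPKM in the mutant library, a ratio of 2.02. The makeup of that sum was alike in the libraries. Jag1 was 79.6% of it in the control library and 77.9% in the mutant library, Dll4 10.8% and 10.6%, Dll1 7.7% and 10.2%, and Jag2 2.0% and 1.4%. In RNA from sorted pools, a larger share of cells that transcribe a gene and more transcript per cell cannot be told apart.

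Hes1 and Hey1, the target genes, were both higher in the mutant library, but by different amounts. Hes1 (chromosome 16, 30064384 to 30067796, plus strand) was at 9.71 FPKM in the control library and 18.6 FPKM in the mutant library, a ratio of 1.92 and a log2 ratio of 0.87. Of all protein-coding genes, 12.4% had a log2 ratio at least as high, and of the 4609 within 2-fold of its mean level, 8.2% did. Hey1 (chromosome 3, 8663359 to 8667256, minus strand) was at 7.91 and 9.91 FPKM, a log2 ratio of 0.29, which 30.5% of all protein-coding genes reached. In the control library, Hes1, Hey1 and Jag1 lay within 2 FPKM of each other. In the mutant library, Hes1 and Jag1 stood above Hey1. Hes1 is also induced by signals other than Notch, so its level is no direct reading of receptor activity.

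How firmly these ratios stand against counting error was judged from the number of fragments behind them. The table gives no counts, but its lowest values fall in steps that show what 1 fragment is worth. These steps put the number of fragments that FPKM was divided by at about 5260000 in the control library and 6170000 in the mutant library. It equals the size of the library only if no other scaling was used, which is not known. If all fragments of a gene came from its longest coding transcript in GENCODE vM21, Jag1 rested on about 222 fragments in the control library and 514 in the mutant library. Its ratio of 1.98 then has an exact (Clopper-Pearson) 95% interval of 1.68 to 2.32. Hes1, with about 67 and 151 fragments, had an interval of 1.43 to 2.6 around 1.92. Both intervals lie above 1 and hold 2. Dll1 rested on about 13 and 42 fragments (interval 1.45 to 5.59), and Dll4 on about 20 and 46 (1.14 to 3.5). Jag2, with about 5 and 8 fragments, had an interval of 0.394 to 5.3, so no difference was detectable at this depth. For Hey1 the interval of 0.954 to 1.64 included 1. The long receptor transcripts gave narrow intervals of 0.874 to 1.02 for Notch1, 0.777 to 0.887 for Notch2 and 1.1 to 1.28 for Notch3, while that of Notch4 was 1.04 to 1.89. The intervals are rough and describe only the error of counting. They contain neither the spread between animals nor that of cDNA amplification from 2 to 3 ng of RNA.

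**Figure D2:**
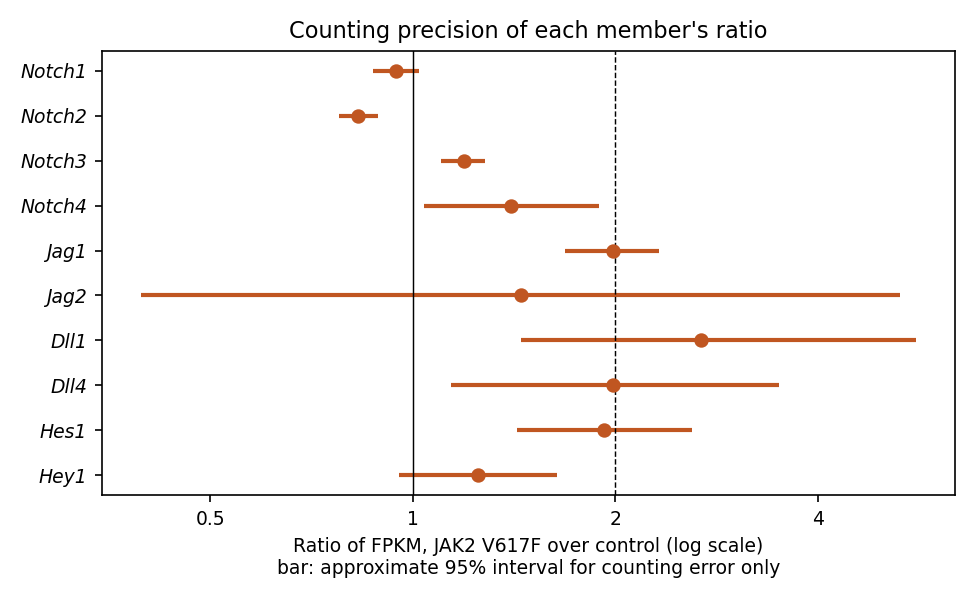
Ratio of FPKM in the mutant library to the control library (points, log axis) for each gene, with the approximate 95% interval for counting error (bars); the solid line is a ratio of 1 and the dashed line 2. The intervals of Jag1, Dll1, Dll4 and Hes1 lie above 1 and hold 2, that of Notch2 lies below 1, and that of Jag2 runs from 0.394 to 5.3.

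By the spans deposited with the values, rows of other genes overlap 5 of the 10 loci, and fragments in shared sequence could have been divided between rows. In the table, Dll1 and AC154378.1 are given 1 common span, which runs past the end of Dll1 in GENCODE to 15379475 and so covers the printed window. AC154378.1 was at 0.403 FPKM in the control library and 1.11 FPKM in the mutant library, higher in the same library as Dll1. Over Notch3 lies a row for CT033755.1, at 3.77 and 0.747 FPKM. Over Notch4 lies the pseudogene Gm20462, at 0 and 0.711 FPKM, and over Notch1 a shared row for 0610009E02Rik and Gm13568, at 0 and 1.36 FPKM. Gm14207, antisense at the start of Dll4, extends the span given for Dll4 to 119321187 and was listed at 0 in both libraries. Jag1, Jag2, Notch2, Hes1 and Hey1 had no overlapping row. The use of strand is not given in the sources used here, so the values of Dll1, Notch1, Notch3 and Notch4 are less certain than those of Jag1 and Hes1.

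The scaling between the libraries decided on which side of the 2-fold line Jag1 and Hes1 fell. All FPKM values summed to 924587 in the control library and 817478 in the mutant library. With both sums made equal, the log2 ratio of all protein-coding genes had a median of 0.12, and Jag1 (1.07) and Hes1 (1.04) both passed 2-fold. The same happened after rescaling to the same upper quartile, where that median was 0.18. Over all protein-coding genes, the shares at least 2-fold higher and lower were 12.8% and 6.71% after the first rescaling and 13.8% and 6.21% after the second. Measured from the median of all protein-coding genes, Jag1 was 0.94 higher on the log2 scale under each of the 4 scalings, and Hes1 between 0.91 and 0.92 higher. A rescaling moves the gene and that median alike, so apart from the pseudocount this constancy was also set in advance. Jag1, Jag2, Dll1, Dll4, Notch3, Notch4, Hes1 and Hey1 had log2 ratios above 0 under all 5 alternatives of scaling and pseudocount. For genes above 0 as deposited this was fixed beforehand. Every rescaling raised the mutant library, by factors from 1.067 to 1.178, and a pseudocount cannot change a sign. Notch2 could have changed sign by rescaling, and stayed below 0 under all 5. Relative to the median of all protein-coding genes, Jag2 moved from 0.14 as deposited to -0.03 at the same upper quartile. The other genes named here kept their sign on that measure, in which a common factor largely cancels.

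**Figure D3:**
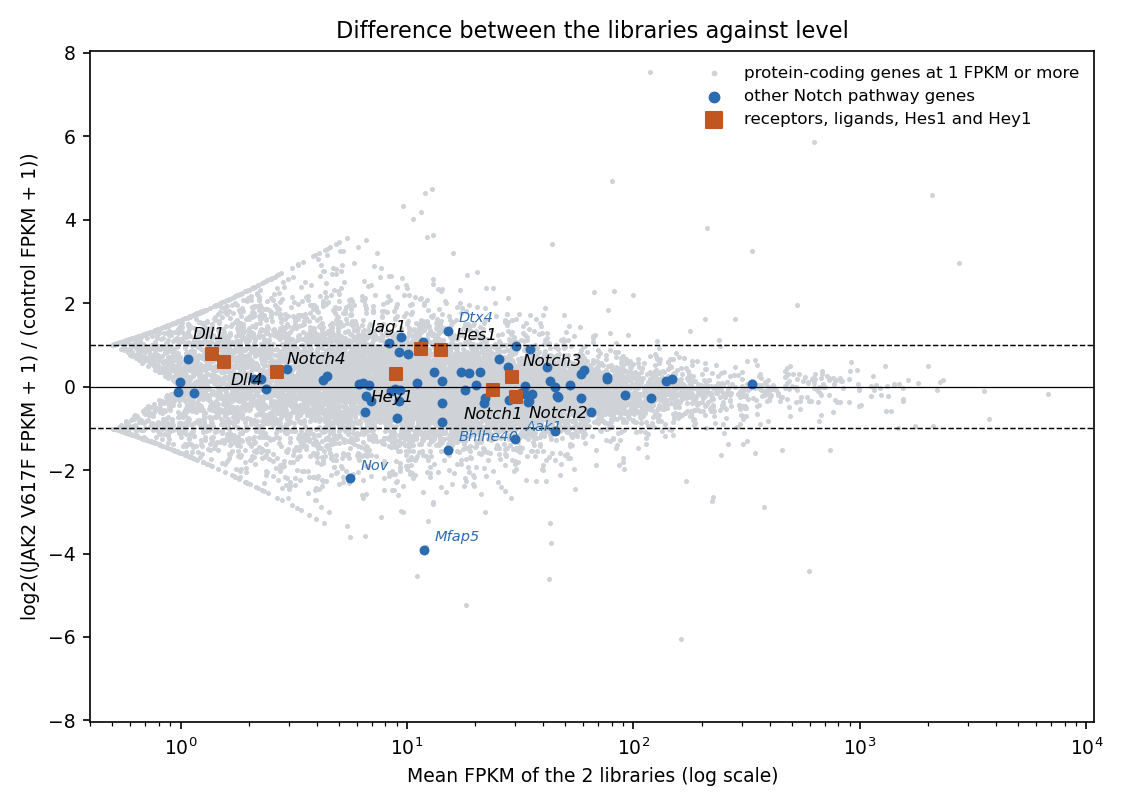
Log2 ratio of the mutant library to the control library against mean FPKM (log axis) for 12439 protein-coding genes (grey), other Notch pathway genes (blue circles) and the receptors, ligands, Hes1 and Hey1 that reached 1 FPKM (orange squares); dashed lines mark 2-fold and 5 of the blue genes are named. The 9 orange genes lie between -0.26 and 0.90, inside the dashed lines.

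The rest of the pathway was examined in 8 lists by role, 85 genes in all, of which 83 had a row and 72 reached 1 FPKM. Of these 72, 4 were at least 2-fold higher in the mutant library (5.56%, against 10% of all protein-coding genes) and 5 at least 2-fold lower (6.94%, against 8.67%). Their median log2 ratio was 0.03, with 38 genes above 0 and 34 below. Both shares rest on few genes, so their distance from those of all protein-coding genes is not read as a trait of the pathway. The count of higher genes ran from 1 with a pseudocount of 5 FPKM to 7 after rescaling to the same upper quartile. The 4 higher genes were Mib2, Epn2, Dtx4 and Gata2, of which Dtx4 alone stayed past 2-fold with a pseudocount of 5 FPKM.

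Among further ligands and ligand-like proteins, 0 of 4 measured genes were higher and 2 were lower. These counts are partly set by the filter. Of the 4, 2 passed it only through the mutant library (Dner and Cntn1) and 1, Mfap5, only through the control library. Mfap5, which encodes a matrix microfibril protein reported to bind Jagged and Notch, was at 23.1 FPKM in the control library and 0.604 FPKM in the mutant library (-3.91). Nov, the matricellular protein CCN3, was at 9.86 and 1.37 FPKM (-2.19). Both are proteins of the matrix as well as binding partners of the pathway. Dll3 was listed at 0 in both libraries. Ligands need ubiquitination and endocytosis in the sending cell to pull on the receptor, and here 2 of 7 genes were higher and 0 lower. Mib2, a ubiquitin ligase of ligands, was at 5.36 and 13.5 FPKM (1.19), and the endocytic adaptor gene Epn2 at 5.12 and 11.6 FPKM (1.04). Mib1, the main ligase for ligands, was at 18.6 and 17.6 FPKM, and the other highly expressed members were Dnm2, the dynamin gene, at 52 and 69.1 FPKM, and Epn1 at 38.8 and 30.1 FPKM.

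The genes that modify and cut the receptor were mostly alike in the libraries. None of the 8 genes for receptor glycosylation and furin cleavage passed 2-fold in either direction, and their median log2 ratio was -0.01. By the mean of the libraries, the highest were Poglut1, an O-glucosyltransferase, at 25.1 and 18.8 FPKM, and Eogt, an O-GlcNAc transferase, at 24.4 and 19.9 FPKM. Of 8 genes for cleavage, 1 was lower and 0 were higher. Adam17, one of the proteases of the first cut, was at 61 FPKM in the control library and 28.8 FPKM in the mutant library (-1.06), which fell within 2-fold after rescaling to the same sum (-0.88). Adam10, the protease of ligand-induced cleavage, was at 78.9 and 51.1 FPKM (-0.62). In gamma-secretase, Psenen was at 51.8 and 53 FPKM, and Ncstn, which encodes nicastrin, at 24.3 and 45.8 FPKM (0.89). The protease genes and the nicastrin gene thus lay on opposite sides.

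In the nucleus, 0 of 9 genes of the activating complex and 0 of 14 corepressor genes passed 2-fold, with medians of -0.11 and 0.07. Rbpj, the DNA-binding partner of all Notch receptors, was at 7.88 FPKM in the control library and 6 FPKM in the mutant library (-0.34). The acetyltransferase coactivator genes Crebbp and Ep300 were at 49.5 and 42 FPKM and at 45.2 and 44.5 FPKM. Kat2b, a further acetyltransferase gene, was at 20 and 40.5 FPKM (0.98), within 2-fold on the deposited scale and past it under the 3 other scalings. The corepressor gene Ncor1 was at 327 and 343 FPKM and Sin3a at 131 and 109 FPKM. Among 11 genes for inhibition, trafficking and turnover, 1 was higher and 1 lower. Dtx4, of the Deltex family of ubiquitin ligases that act on Notch, was at 8.18 and 22.3 FPKM (1.34), and Aak1, a kinase gene of endocytosis, at 42.9 and 17.3 FPKM (-1.26). The ubiquitin ligase gene Nedd4 was at 132 and 145 FPKM and Dtx3 at 71 and 81.1 FPKM.

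Of 11 further HES and HEY family members and genes reported as Notch targets in some cell types, 1 was higher and 1 lower, with a median of 0.13. Heyl, a HEY family repressor gene known from smooth muscle, was at 23.2 FPKM in the control library and 32.8 FPKM in the mutant library (0.48), above Hes1 and Hey1 in both. Hey2 was at 2.45 and 2.34 FPKM, and Nrarp, a feedback inhibitor induced by Notch, at 3.98 and 4.54 FPKM (0.15). Hes5 was at 0.435 FPKM in the mutant library and listed at 0 in the other, while Hes3 and Ptcra, a T cell target, were listed at 0 in both. Gata2, a transcription factor of blood progenitors and endothelium, was at 7.21 and 16.4 FPKM (1.08), and the repressor gene Bhlhe40 at 23 and 7.41 FPKM (-1.51). Myc was at 140 and 157 FPKM and Ccnd1 at 34.6 and 48 FPKM. Of the 11, 7 had a ratio above 0 and 4 below, and Hes6 (-0.23) and Id3 (-0.36) were among the latter.

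**Figure D4:**
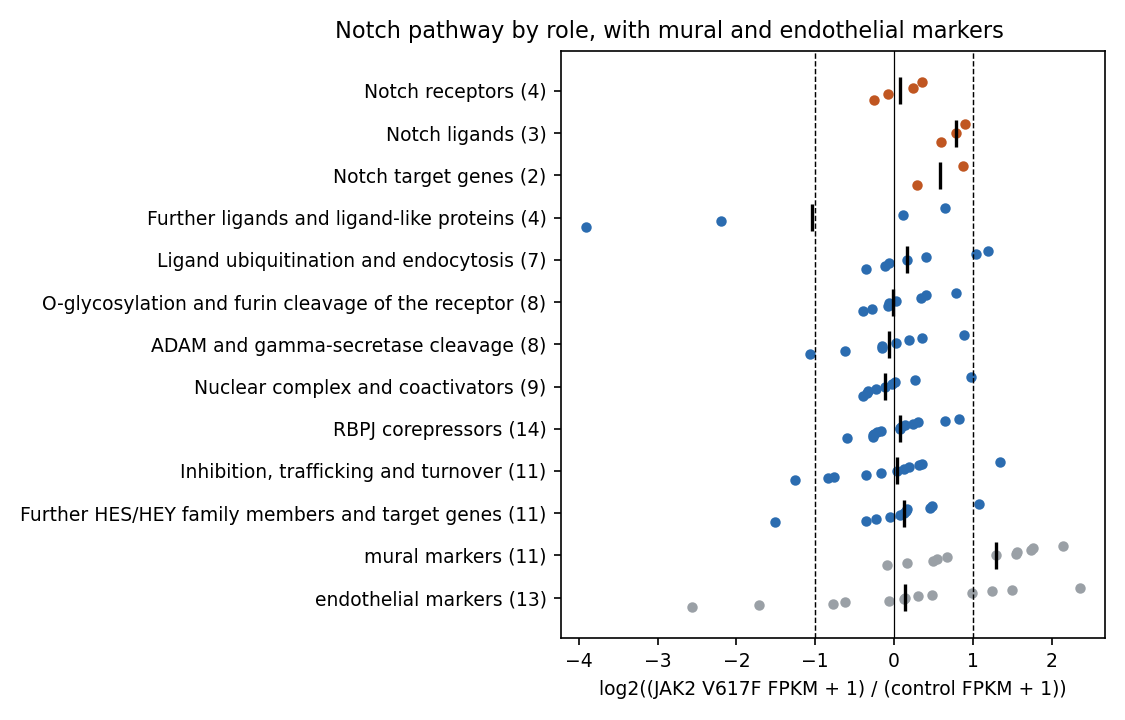
Log2 ratio of the mutant library to the control library for each gene at 1 FPKM or more, by role (number of genes in brackets), with receptors, ligands and targets in orange, other pathway lists in blue and cell type markers in grey; black ticks are medians and dashed lines 2-fold. Jag1, Dll1 and Dll4 lie between 0.59 and 0.90 (Jag2 is below the filter) and mural markers have a median of 1.30, while the other pathway lists, apart from the 4 ligand-like genes, have medians between -0.11 and 0.17.

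Markers of cell types that transcribe Notch genes differed between the pools, and their part in the results was not tested. The counts below are to be read beside the shares of all protein-coding genes, 10% at least 2-fold higher and 8.67% at least 2-fold lower. Of 11 measured mural (pericyte and smooth muscle) markers, 6 were at least 2-fold higher in the mutant library and 0 lower, and the list summed to 214 and 391 FPKM. Rgs5 and Pdgfrb, its highest members, were at 115 and 183 FPKM and at 38.9 and 43.9 FPKM. The contractile genes Acta2 (12.2 and 43.2 FPKM) and Des (3.38 and 18.4 FPKM) and the channel genes Kcnj8 (7.6 and 24.2 FPKM) and Abcc9 (11.5 and 29.6 FPKM) were higher, as were Mcam and Higd1b. Tagln was at 5.11 and 4.75 FPKM. These values stand beside those of Notch3 and Heyl, which were within 2-fold, and of Jag1. Endothelial markers went both ways. Of 13 measured, 3 were at least 2-fold higher (Emcn, Robo4 and Erg) and 2 lower (Sox18 and Plvap), and the list summed to 60 and 68.3 FPKM. These counts are partly set by the filter. Of the 13, 3 passed it only through the mutant library, among them Emcn (0.196 and 5.15 FPKM) and Robo4 (0.239 and 2.51 FPKM). Only Sox18 (4.88 and 0 FPKM) passed it through the control library alone. Pecam1, which encodes the CD31 used to deplete endothelium, was at 17.1 and 19 FPKM, and Cdh5 at 4.94 and 4.66 FPKM. Sox17 was listed at 0 in both libraries, and Cldn5 at 0 and 0.19 FPKM. These values stand beside those of Notch4 and Dll4.

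The labelled stromal cells were represented in both libraries, with all 10 stromal markers detected and 0 past 2-fold in either direction (sums of 1226 and 992 FPKM). Other cell types were also represented. Their counts stand beside the shares of all protein-coding genes, 10% at least 2-fold higher and 8.67% at least 2-fold lower. The counts of markers at least 2-fold higher and lower were 0 and 4 of 8 for osteoblasts (3913 and 1977 FPKM), 6 and 0 of 8 for chondrocytes (332 and 1870 FPKM), and 2 and 0 of 7 for Schwann cells (672 and 4993 FPKM). Prg4 carried most of the chondrocyte sum in the mutant library, and without it the sums were 311 and 636 FPKM. Mbp carried most of the Schwann sum in both, and without it the sums were 48 and 121 FPKM. For blood cells they were 3 and 0 of 8 for pan-leukocyte genes (311 and 433 FPKM), 5 and 0 of 5 for macrophages (7.24 and 31.9 FPKM over 9 genes, with C1qa and Marco at 0 in both) and 0 and 2 of 8 for erythroid genes (2464 and 1280 FPKM). They were 3 and 1 of 5 for T and NK cells (37.4 and 98 FPKM, with Cd3g at 0 in both), 2 and 1 of 8 for B cells (119 and 111 FPKM), 3 and 0 of 5 for megakaryocytes (8.31 and 53.8 FPKM) and 4 and 0 of 7 for stem and progenitor cells (103 and 109 FPKM). Some of the markers counted passed the filter only through the mutant library where they were high, so their counts are partly set by the filter. They were 3 of the 5 for macrophages, 3 of the 5 for megakaryocytes and 3 of the 7 for stem and progenitor cells. They were also 2 of the 5 for T and NK cells, 2 of the 8 for B cells, 2 of the 7 for Schwann cells and 1 of the 8 for chondrocytes. The 2 for B cells are the 2 counted as higher. For T and NK cells, 1 marker passed only through the control library. The part of these cell types in the ratios of Jag1, Hes1 and the other Notch genes was not tested.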

How the data were processed

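The authors deposited 1 FPKM value per gene and library. The submitters' processing notes name GRCm38, Cufflinks, Bowtie2 (2.0.6), TopHat2 (2.0.7) and cutadapt (1.2.1). Annotation release, strand and scaling between libraries were not given in the sources used here. Rows naming several genes (401) were left out. A row can carry the merged span of overlapping genes, so positions were taken from GENCODE vM21, counted from 1. Gene type came from RefSeq GRCm38.p6, synonyms included (19928 protein-coding genes on a row alone). With 1 library per group no test was run. Log2 ratios used a pseudocount of 1 FPKM, and calls needed 2-fold and 1 FPKM in a library. Alternatives were pseudocounts of 0.1 and 5, a filter of 5 FPKM or none, and 3 rescalings.

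The value of 1 fragment was fitted on 3427 genes with 1 GENCODE vM21 transcript, with 150 nt subtracted from length, after the fit was tested on simulated data. Below 3.5 fragments, 82.7% of 214 and 82.5% of 411 genes lay within 0.2 of a whole number; unit and offset were chosen on these genes. No molecular identifiers are mentioned.

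Members and lists were chosen with earlier results of these data known. All 10 genes are named, and from each pathway list the genes past 2-fold and the 2 with the highest mean. Mib1, Ncstn, Rbpj, Kat2b, Heyl, Hey2, Nrarp, Hes5, Hes6 and Id3 were added after their values were seen, as were the named mural and endothelial genes beyond the 2 highest of each list. For the other marker lists only counts, sums, genes at 0 and a gene that carries a sum are given. A corepressor entry made in error, Kyat1, was removed unmeasured, and Ccn3, a second name of Nov, was counted once. Computation used Python 3.11.15, numpy 2.4.6, pandas 2.3.3 and scipy 1.17.1.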

Additional observations from a re-analysis of the deposited data

How the results depend on the processing

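The count of receptors, ligands and targets at least 2-fold higher was 0 on the deposited scale, 1 (Dll1) with a pseudocount of 0.1, and 2 (Jag1 and Hes1) after rescaling to the same sum and to the same upper quartile. With a pseudocount of 5, no filter, 5 FPKM or more, or the median ratio of genes set to 1 it stayed at 0, and the count at least 2-fold lower was 0 under all 7 alternatives. The median log2 ratio of 0.35 was 0.47 with a pseudocount of 0.1, 0.21 with 5, 0.49 at the same sum, 0.42 at a median ratio of 1, 0.54 at the same upper quartile, 0.27 at 5 FPKM or more and 0.32 unfiltered. Of other pathway genes, 4 were higher on the deposited scale, 1 with a pseudocount of 5 and 7 at the same upper quartile, and between 4 and 5 were lower under all 7 alternatives. The share of all protein-coding genes called higher also rose, from 10% as deposited to 12.8% at the same sum and 13.8% at the same upper quartile. The share called lower fell from 8.67% to 6.71% and 6.21%. These shares were not computed for the other alternatives, so counts there have no share beside them. Jag1 ranged from 0.67 to 1.12, Hes1 from 0.68 to 1.10, Dll1 from 0.28 to 1.31 and Dll4 from 0.23 to 0.92 under the 5 alternatives run for single genes. No paired analysis was possible because each genotype had 1 library, and for the same reason no replicate could be left out. Depth limits Jag2, Dll1 and Dll4 most.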
